A study of Homo sapiens with 12 samples.

Results

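The SLC4, SLC9, SLC12 and SLC26 families of solute carriers move protons, chloride, bicarbonate and the cations coupled to them across cell membranes, and their genes were followed in drug-treated H520 cells. Members were taken by symbol, as every row named SLC4A, SLC9A, SLC12A or SLC26A followed by a number. The scaffold genes SLC9A3R1 and SLC9A3R2, hyphenated names and pseudogenes were dropped. Of 58174 rows, 54 began this way, 40 met the rule, and 39 of these encode transporters: 10 of SLC4, 9 of SLC9, 9 of SLC12 and 11 of SLC26. The remaining row, SLC4A1AP, encodes the adaptor-like protein kanadaptin and enters no count.

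H520 (NCI-H520) is an established human cell line derived from a squamous carcinoma of the lung. Poly(A) RNA was sequenced from control cells, from cells given 1 µM BLU9931, which irreversibly inhibits the fibroblast growth factor receptor FGFR4, from cells given 1 µM palbociclib, an inhibitor of the cell cycle kinases CDK4 and CDK6, and from cells given 1 µM of each drug. Treatment lasted 72 h and each of the 4 groups has 3 libraries. The treatment of the control cells is not stated in the labels. They also leave unsaid if libraries of 1 group come from separate cultures, so a p-value here measures the spread between these libraries, which may be technical. In bulk RNA, fewer cells of a kind and less RNA per cell cannot be told apart.

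Cells that divide and burn glucose make acid, and they hold their internal pH by exporting protons and importing bicarbonate. SLC9 proteins exchange sodium for protons, and SLC4 proteins carry bicarbonate either with sodium or in exchange for chloride. SLC12 proteins couple chloride to sodium and potassium and so set cell chloride and volume, while SLC26 proteins exchange or conduct anions such as chloride, bicarbonate and sulfate. In airway and stomach epithelium, members of these families serve acid, bicarbonate and fluid secretion.

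Libraries held 21.7 M to 35.8 M counts (M, mega). The unit of level is CPM, the count after scaling for library size and edgeR's TMM factor, and comparisons between genes use the deposited TPM, which also corrects for transcript length. The libraries control 1 and palbociclib 3 stood apart from the others: on the second principal component of all genes they lay at 67.4 and 71.6, and the other 10 lay between -32.6 and 5.38. Their deviations from the mean of the other 2 libraries of their group went down with GC content across genes (Spearman rho -0.667 and -0.735). Among transporters the same was seen: of 15 tested members whose longest transcript has a GC content of at least 55%, 14 were lower in control 1 than the mean of its 2 mates (median difference -0.80 on the log2 scale) and 14 were lower in palbociclib 3 (median -1.04). Of the 16 with less GC, 4 and 7 were lower, with medians of 0.20 and 0.34. The split at 55% was chosen after the values were seen. Of 12 squamous and basal markers, 5 reached 1 CPM in any library. In control cells SOX2 was at 501 CPM, DSC3 at 10.8, TRIM29 at 4.93 and KRT15 at 4.21 CPM, while TP63 stayed at or below 0.223 CPM and KRT5 at or below 0.805 CPM in every library, and KRT17 had 0 counts. The summed level of 6 neuroendocrine markers, led by CHGB, ranged from 451 to 479 CPM in control libraries and from 954 to 987 CPM in combination libraries. Most of this sum was CHGB, at 388 and 906 CPM on average, while NCAM1 was at 46.4 and 10.6 CPM, SYP at 3.35 and 2.49 CPM and CHGA at or below 0.657 CPM in every library. Their part in the transporter results was not tested.

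**Figure D1:**
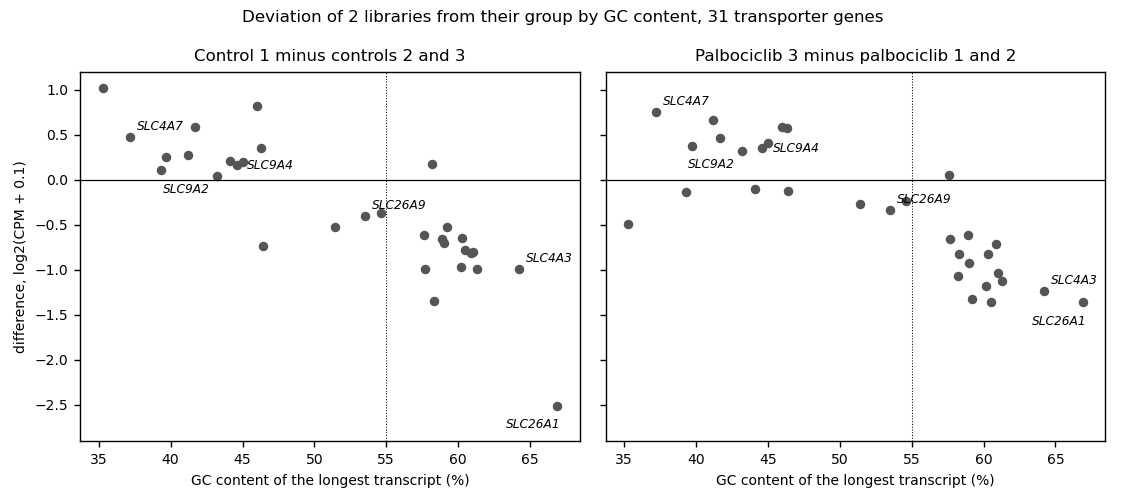
Deviation of control 1 (left) and palbociclib 3 (right) from the mean of the other 2 libraries of their group, as a difference of log2(CPM + 0.1), against the GC content in percent of the longest transcript, with 1 point for each of the 31 tested transporter genes and a dotted line at 55%. Of the 15 genes right of the line, 14 lie below 0 in each panel, and SLC26A1 lies lowest in control 1.

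In control cells the transporter transcripts spanned a wide range of TPM. The potassium chloride cotransporter gene SLC12A7 (KCC4) came first at 68.6 ± 22.9 TPM (SD, n = 3), followed by SLC4A8, a sodium-driven chloride bicarbonate exchanger, at 53.8 ± 3.56 TPM and SLC4A7 (NBCn1), a sodium bicarbonate cotransporter, at 45.4 ± 4.55 TPM. The apical sodium proton exchanger SLC9A2 (NHE2) held rank 4 at 37.2 ± 0.271 TPM. Neighbours in this order mostly did not separate: among the first 30 genes, 26 of 29 neighbouring pairs had overlapping libraries. SLC9A4 (NHE4) held rank 24 at 2.22 ± 0.157 TPM and SLC26A9 rank 25 at 1.37 ± 0.286 TPM. A group mean of at least 1 CPM was reached by 29 of the 39 transporters, and of at least 10 TPM by 20. The 8 genes too low to test were the kidney cotransporters SLC12A1 and SLC12A3, the intestinal and thyroid anion exchangers SLC26A3 and SLC26A4, and SLC26A8, SLC4A1, SLC4A10 and SLC9A9. Their highest library values ran from 0.0808 to 0.464 CPM.

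With both drugs the order changed. SLC26A1 moved from rank 11 in control cells (17.0 ± 11.4 TPM) to rank 1 (101.8 ± 16.8 TPM), SLC9A2 from rank 4 to rank 3 (94.8 ± 5.92 TPM) and SLC9A4 from rank 24 to rank 8 (29.8 ± 1.72 TPM). SLC4A7 went from rank 3 to rank 11 (22.3 ± 2.74 TPM). SLC26A9 reached rank 16 at 14.4 ± 1.34 TPM. For SLC26A1, control 1 was at 3.82 TPM and the other control libraries at 23.2 and 23.9 TPM. SLC26A1 also overlaps IDUA and DGKQ, and reads of these genes cannot be told apart there, so its rank may not be its own. The highest ranks in combination cells were not separated by their spread, since SLC12A7 stood second at 95.5 ± 4.70 TPM between SLC26A1 and SLC9A2.

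**Figure D2:**
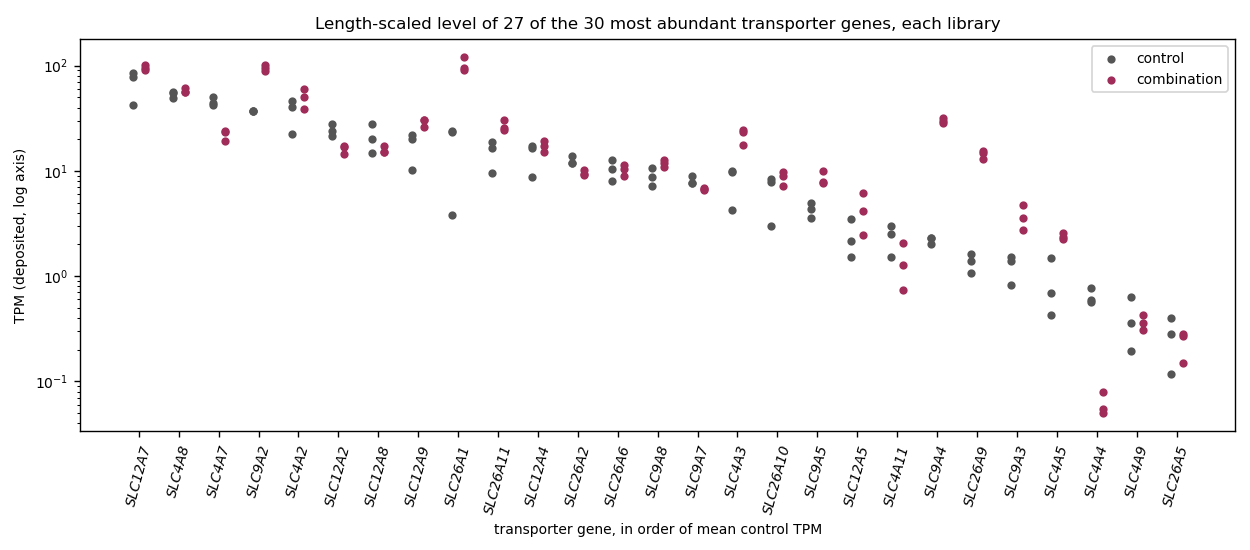
Deposited TPM (log axis) of 27 of the 30 transporter genes with the highest mean in control cells, in that order along the x axis, with 1 point per control library (grey) and combination library (purple). SLC9A4 lies at 2.22 TPM in control cells and 29.8 TPM with both drugs on average, and SLC4A4 at 0.645 and 0.0614 TPM.

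Sequence before the start site is shown for 4 of the genes that passed the test, with groups that did not overlap, in palbociclib against control, combination against control and combination against BLU9931, a choice made after the values were seen. Each line holds the 250 bases before the RefSeq start (GRCh38.p14), 5′ to 3′ on the gene's strand, at chr2:102472976-102473225 (+) for SLC9A4, chr2:102619303-102619552 (+) for SLC9A2, chr1:205943457-205943706 (-) for SLC26A9 and chr4:71186515-71186764 (+) for SLC4A4, the window of 1 of 5 listed starts. Capitals mark the cell cycle homology region (CHR) motif.
SLC9A4: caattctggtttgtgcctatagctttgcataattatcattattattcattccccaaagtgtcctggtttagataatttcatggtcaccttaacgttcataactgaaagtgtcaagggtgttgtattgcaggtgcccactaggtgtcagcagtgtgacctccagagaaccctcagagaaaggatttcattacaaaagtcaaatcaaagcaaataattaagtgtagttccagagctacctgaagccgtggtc
SLC9A2: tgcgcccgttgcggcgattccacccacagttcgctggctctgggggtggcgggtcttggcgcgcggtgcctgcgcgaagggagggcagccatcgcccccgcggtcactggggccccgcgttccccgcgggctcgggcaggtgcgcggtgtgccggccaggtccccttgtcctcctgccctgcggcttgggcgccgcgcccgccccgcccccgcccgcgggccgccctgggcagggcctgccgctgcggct
SLC26A9: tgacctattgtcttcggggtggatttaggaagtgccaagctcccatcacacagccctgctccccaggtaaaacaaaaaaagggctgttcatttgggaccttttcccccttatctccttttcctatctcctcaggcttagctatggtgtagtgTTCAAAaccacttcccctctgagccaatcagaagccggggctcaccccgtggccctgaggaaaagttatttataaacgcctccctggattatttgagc
SLC4A4: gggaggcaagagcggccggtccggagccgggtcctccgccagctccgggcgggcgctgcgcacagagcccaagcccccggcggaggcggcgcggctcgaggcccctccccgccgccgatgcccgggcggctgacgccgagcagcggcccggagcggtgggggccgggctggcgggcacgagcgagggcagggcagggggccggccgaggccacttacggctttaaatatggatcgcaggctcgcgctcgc
GC content separates the windows: 40.4% for SLC9A4 and 49.6% for SLC26A9 against 79.6% for SLC9A2 and 78.8% for SLC4A4. The windows were searched on both strands for the E2F motif TTTCCCGC, the CHR motif TTTGAA, the FOXO motif GTAAACA and the E-box CACGTG. SLC26A9 held 1 CHR match, 98 bases before the start, and no other match was found in these 4 windows. Of all 35097 RefSeq windows of this length, 1.39% held the E2F, 13.3% the CHR, 2.98% the FOXO and 6.34% the E-box letters. Among the 45 windows of 30 transporter genes the CHR letters were in 5 (11.1%), the E-box in 6 (13.3%) and the FOXO letters in 1 (2.22%), and the E2F letters in 0.

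Of the 31 transporters with enough counts for the test, 8 rose and 2 fell under palbociclib (edgeR's quasi-likelihood test, Benjamini-Hochberg adjusted p under 0.05), which is 32.3%, beside 20.6% of all 20612 genes tested (10% higher and 10.5% lower). The median log2 change of the tested transporters was 0.32, and that of all genes 0.01. With both drugs 9 rose and 5 fell against control, 45.2% beside 31.7% of all genes (15.4% higher and 16.3% lower), with a median of 0.30 against 0.03 for all genes. Against BLU9931 alone the combination raised 5 and lowered 3 (25.8% beside 27% of all genes, 13.3% higher and 13.7% lower). Against palbociclib alone it raised 1 and lowered 1 (6.45% beside 3.82% of all genes, 0.917% higher and 2.91% lower). These comparisons share libraries and are not independent.

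BLU9931 alone moved 0 of the 31 past edgeR's adjusted threshold, where 0.18% of all genes passed (0.141% higher and 0.0388% lower). At an unadjusted p under 0.05 there were 6 transporters, but all genes were not counted at that level, so no share stands beside them. DESeq2 called 2 (SLC9A4 and SLC4A5) beside 544 of all 20612 genes, and limma on log2(TPM + 0.1) called 0 beside 34. Without the library palbociclib 3, edgeR called 1, SLC9A4 (log2 0.75, adjusted p = 0.0237), beside 396 of 21242 genes. The interaction, which sets the log2 effect of the combination against the single-drug effects added together, was called for 0 transporters by edgeR beside 1.59% of all genes (0.281% higher and 1.31% lower). Here 5 had an unadjusted p under 0.05, again without a count of all genes at that level. DESeq2 called 3 (SLC9A2, SLC4A4 and SLC4A5) beside 818 of all genes, and limma called 0 beside 240. Without palbociclib 3, edgeR called 3 (SLC9A2, SLC4A4 and SLC26A2) beside 986.

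**Figure D3:**
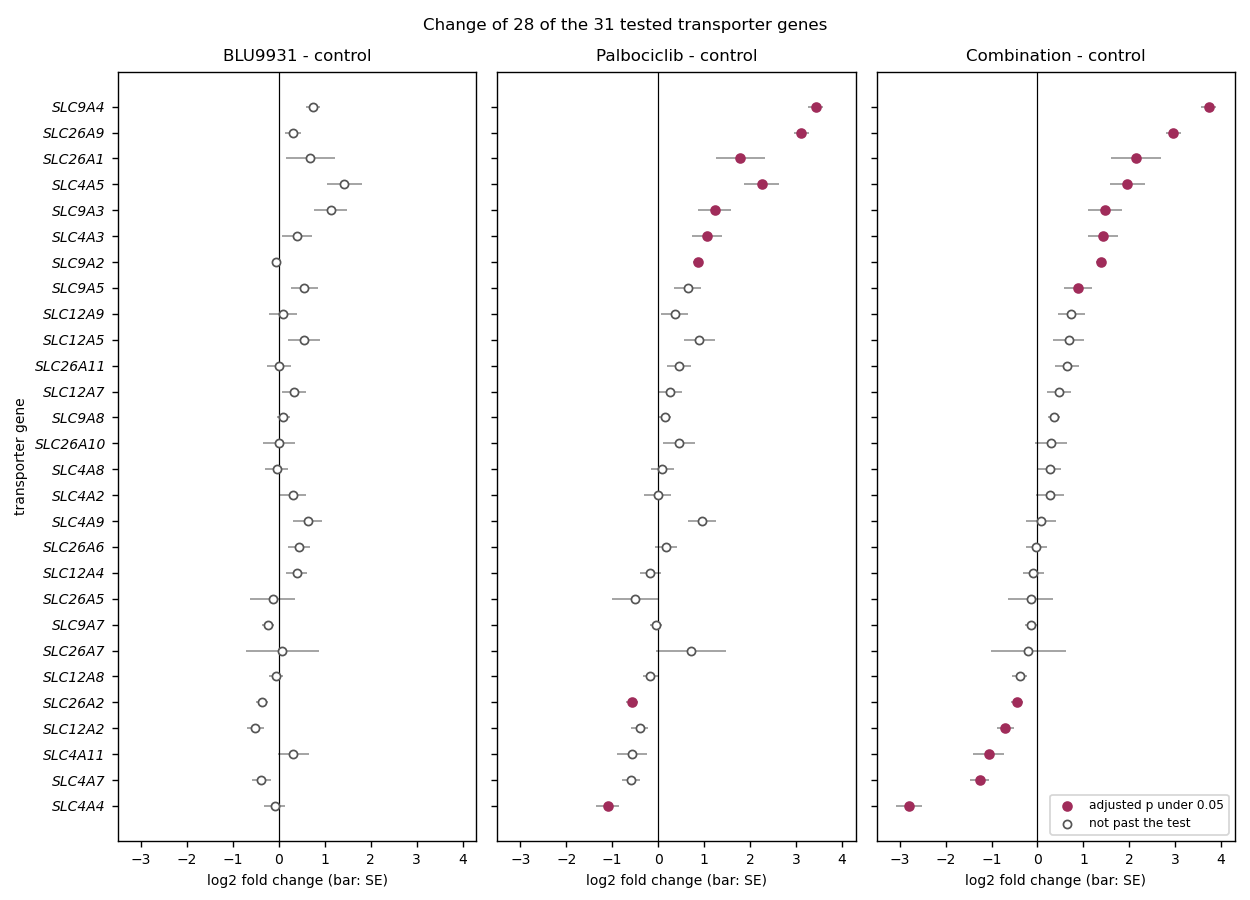
Log2 fold change against control (x axis; bar, SE of the fit) of 28 of the 31 tested transporter genes (y axis) under BLU9931, palbociclib and the combination, with filled points for edgeR's adjusted p under 0.05. SLC9A4 and SLC26A9 lie farthest right under palbociclib and the combination (3.43 and 3.12, then 3.73 and 2.96), SLC4A4 farthest left (-1.10 and -2.80), and no point is filled under BLU9931.

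The sodium proton exchangers of the SLC9 family held the gene with the largest fold of the 31. SLC9A4, an exchanger known from the basolateral membrane of acid-secreting stomach cells, was at 4.21, 3.18 and 4.45 CPM in the control libraries and 6.88, 6.25 and 6.80 CPM under BLU9931. Under palbociclib it was at 37.8, 40.4 and 49.8 CPM, and with both drugs at 52.7, 52.7 and 52.3 CPM. Every library with palbociclib lay far above every library without it, and the BLU9931 libraries all lay above the controls. SLC9A4 rose 10.8-fold under palbociclib (log2 3.43, SE 0.16, edgeR adjusted p = 7e-07) and 13.3-fold with both drugs (log2 3.73, SE 0.16, adjusted p = 5.99e-08). The combination was 7.92-fold above BLU9931 alone (adjusted p = 2.42e-07). Against palbociclib alone its log2 difference was 0.30 (SE 0.14, adjusted p = 0.344). Under BLU9931 alone the log2 difference from control was 0.75 (SE 0.15, adjusted p = 0.0747), and this passed with DESeq2 (0.00324), after GC adjustment (0.00262) and without palbociclib 3 (0.0237).

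SLC9A2, an apical exchanger of gut and airway epithelium, lies next to SLC9A4 on chromosome 2 in the same orientation. SLC9A4 spans 102473303 to 102533972 and SLC9A2 spans 102619707 to 102711318 (GRCh38), 85734 bases apart with 0 protein-coding genes between them. SLC9A2 was at 102.5, 102.4 and 97.0 CPM in control libraries, 92.0, 100 and 99.7 CPM under BLU9931, 164.7, 172.8 and 210.5 CPM under palbociclib, and 258.2, 274.9 and 250.1 CPM with both drugs. The control and BLU9931 libraries mixed, the palbociclib libraries lay above both, and the combination libraries above all. It rose 1.82-fold under palbociclib (log2 0.86, SE 0.10, edgeR adjusted p = 0.000218) and 2.59-fold with both drugs (log2 1.38, SE 0.10, adjusted p = 2.64e-06). It was the transporter that rose in the combination against palbociclib alone, by 1.43-fold (log2 0.52, SE 0.10, adjusted p = 0.0165). That call ended without palbociclib 2 (0.49, adjusted p = 0.0518) or combination 2 (0.48, adjusted p = 0.0591). The interaction was 0.56 (SE 0.15, adjusted p = 0.091), and 0.68 without palbociclib 3 (adjusted p = 0.00889).

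The tested genes around this pair gave smaller values. IL18RAP, next before SLC9A4, had too few counts for the test. Before it, IL18R1, a cytokine receptor gene, was at 1.19 CPM in control cells with log2 differences of 0.21 under palbociclib (edgeR adjusted p = 0.685) and 0.26 with both drugs (0.563). Behind SLC9A2, MFSD9 was at 35.5 CPM with differences of 0.06 (0.882) and 0.10 (0.733), and TMEM182 at 5.12 CPM with 0.72 (0.0514) and 0.64 (0.0575). None of these 3 neighbours passed the test in either comparison.

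SLC9A3 (NHE3), the apical exchanger of kidney and gut that takes up sodium, was at 1.19, 2.25 and 1.98 CPM in control libraries, 3.61, 4.24 and 4.10 CPM under BLU9931, 5.53, 5.19 and 2.02 CPM under palbociclib and 3.76, 4.76 and 6.54 CPM with both drugs. Palbociclib 3 lay within the control range and the other treated libraries lay above it. With both drugs SLC9A3 rose 2.77-fold (log2 1.47, SE 0.36, edgeR adjusted p = 0.00935). The palbociclib value was 2.35-fold (log2 1.23, SE 0.36, adjusted p = 0.0337), and it missed the threshold when any 1 of 9 libraries was left out: each control and each BLU9931 library, palbociclib 1, palbociclib 2 or combination 2 (log2 0.98 to 1.41, adjusted p 0.0504 to 0.134). Its overlapping antisense gene SLC9A3-AS1 was more abundant and higher too, from 21.4 CPM in control cells to 41.0 under palbociclib (log2 0.94, adjusted p = 0.0427) and 48.0 CPM with both drugs (log2 1.16, adjusted p = 0.0107). The use of strand in counting is not given in the sources used here, so reads of these 2 genes cannot be told apart.

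SLC9A5 (NHE5), an exchanger known from brain, was at 4.58, 8.48 and 10 CPM in control libraries and 10.2, 14.3 and 17.9 CPM with both drugs, with the BLU9931 and palbociclib libraries between 8.65 and 14.4 CPM. The combination value of 1.84-fold (log2 0.88, SE 0.30, edgeR adjusted p = 0.0464) passed only narrowly. It missed the threshold without any 1 of 9 libraries, namely each BLU9931 library, combination 2 or 3, control 1 or 2, and palbociclib 1 or 2 (log2 0.59 to 0.94, adjusted p 0.0599 to 0.189). SLC9A5 also overlaps FHOD1 on the other strand and AC040160.1 on its own, so its counts could hold reads of these genes. For SLC9A7 and SLC9A8, exchangers found mainly in the Golgi and endosomes, the log2 differences with both drugs were -0.15 (SE 0.13) and 0.36 (SE 0.14). Neither passed in the main edgeR fit, and SLC9A8 passed without palbociclib 3 (0.35, SE 0.12, edgeR adjusted p = 0.0421).

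In the SLC26 family, SLC26A9 stood out. It encodes an anion transporter and chloride channel known from airway and stomach epithelium. Its libraries were at 2.72, 3.39 and 3.88 CPM in control cells, 3.69, 4.62 and 4.10 CPM under BLU9931, 33.2, 29.5 and 24.7 CPM under palbociclib and 25.7, 25.4 and 27.2 CPM with both drugs. All libraries with palbociclib lay above 24 CPM and all without it below 5 CPM. SLC26A9 rose 8.72-fold under palbociclib (log2 3.12, SE 0.17, edgeR adjusted p = 2.18e-06), 7.81-fold with both drugs (log2 2.96, SE 0.17, adjusted p = 4.13e-07) and 6.30-fold in the combination against BLU9931 (adjusted p = 9.8e-07). Adding BLU9931 to palbociclib gave a log2 difference of -0.16 (SE 0.16, adjusted p = 0.707).

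SLC9A4 and SLC26A9 are both known from the stomach, so gastric markers were read beside them. Of 9 such markers 1, MUC6, reached 1 CPM in any library. TFF1, TFF2 and GKN1 had 0 counts, and the acid pump genes ATP4A and ATP4B stayed at or below 0.944 and 0.0787 CPM. The summed level of the list was 0.484 to 1.94 CPM in control libraries, 2.10 to 3.42 CPM under palbociclib and 2.35 to 3.37 CPM with both drugs. Markers of pulmonary ionocytes, a cell type of the airway, were low too. Of 9 such markers 1, ATP6V1B1, reached 1 CPM in any library, at 1.29 CPM at most. FOXI1 was at or below 0.302 CPM, CFTR was at or below 0.59 CPM and ATP6V0D2 had 0 counts. The list summed to 0.856 to 1.31 CPM in control libraries and 1.43 to 2.0 CPM under BLU9931. It summed to 0.768 to 1.48 CPM under palbociclib and 0.96 to 1.18 CPM with both drugs.

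The sulfate transporter SLC26A1 was at 3.20, 21.6 and 16.1 CPM in control libraries, 20.8, 19.9 and 25.5 CPM under BLU9931, 58.8, 59.8 and 23.0 CPM under palbociclib and 54.7, 49.5 and 75.9 CPM with both drugs. Control 1 and palbociclib 3 were the lowest libraries of their groups, and at 66.9% this transcript has the highest GC content of the members described library by library. With both drugs SLC26A1 rose 4.39-fold (log2 2.14, SE 0.54, edgeR adjusted p = 0.0113), and 1.65 on the log2 scale without control 1 and palbociclib 3 together (SE 0.21, adjusted p = 0.000223). On deposited TPM with limma the value was larger, at 2.96. Under palbociclib it rose 3.46-fold (log2 1.79, adjusted p = 0.0369), and by 1.64 without those 2 libraries (adjusted p = 0.000629). The palbociclib call ended when any 1 of 8 libraries was left out, namely each BLU9931 library, combination 1 or 2, control 3, and palbociclib 1 or 2 (log2 1.57 to 1.92, adjusted p 0.0544 to 0.116). SLC26A1 shares its locus with IDUA, a lysosomal enzyme gene on the other strand, which rose from 48.8 CPM to 160.2 under palbociclib (log2 1.71, adjusted p = 0.0141) and 194.4 CPM with both drugs (log2 1.99, adjusted p = 0.00399), and with DGKQ on its own strand. DGKQ averaged 2795 counts per library against 981 for SLC26A1, and the 2 genes overlap over 7823 bases. Reads of SLC26A1, IDUA and DGKQ cannot be told apart where they overlap.

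SLC26A2, the sulfate transporter that cartilage depends on, went the other way. Control libraries were at 62.2, 52.8 and 51.6 CPM, BLU9931 libraries at 42.5, 45.7 and 42.0 CPM, palbociclib libraries at 33.9, 34.4 and 44.5 CPM and combination libraries at 39.8, 42.7 and 39.7 CPM. All 9 treated libraries lay below all 3 controls. SLC26A2 fell 1.48-fold under palbociclib (log2 -0.56, SE 0.13, edgeR adjusted p = 0.0103) and 1.36-fold with both drugs (log2 -0.45, SE 0.13, adjusted p = 0.0212). The combination value missed the threshold without control 1 (-0.38, 0.0539), combination 1 (-0.44, 0.0527) or combination 3 (-0.45, 0.0556). Without palbociclib 3 the interaction passed at 0.61 (adjusted p = 0.0428), from 0.47 and 0.268 with all libraries. The other tested members of the family, SLC26A5, SLC26A6, SLC26A7, SLC26A10 and SLC26A11, passed in no comparison of the main edgeR fit. SLC26A11, a sulfate transporter, came nearest with both drugs (log2 0.64, SE 0.26, adjusted p = 0.0824). Without palbociclib 3 it passed (0.64, SE 0.21, edgeR adjusted p = 0.0318). SLC26A5 (prestin) and SLC26A7 had no group mean above 0.702 CPM.

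The bicarbonate transporters of the SLC4 family went in both directions: with both drugs 2 rose and 3 fell of 8 tested, beside 15.4% higher and 16.3% lower among all genes. SLC4A7, the most abundant of those that fell, was at 173.6, 126.1 and 124.5 CPM in control libraries and 101.0, 116.6 and 107.3 CPM under BLU9931. It was at 79.5, 73.5 and 128.4 CPM under palbociclib and 63.3, 60.8 and 52.5 CPM with both drugs. Every combination library lay below every other library, and palbociclib 3 lay inside the control range. SLC4A7 fell 2.40-fold with both drugs (log2 -1.26, SE 0.21, edgeR adjusted p = 0.00075) and 1.84-fold against BLU9931 alone (log2 -0.88, SE 0.21, adjusted p = 0.00807). Palbociclib alone gave -0.59 (SE 0.20, adjusted p = 0.0615), and -0.89 without palbociclib 3 (adjusted p = 0.00171). The combination against palbociclib gave -0.67 (SE 0.20, adjusted p = 0.111) with all libraries. Without control 1 and palbociclib 3 together it gave -0.38 and passed (SE 0.09, adjusted p = 0.0258), and DESeq2 also called it (0.0397).

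SLC4A4 (NBCe1), the electrogenic sodium bicarbonate cotransporter of kidney and pancreas, was scarce and fell furthest. It was at 1.82, 1.73 and 1.64 CPM in control libraries, 1.61, 1.53 and 1.74 CPM under BLU9931, 1.04, 0.629 and 0.727 CPM under palbociclib and 0.181, 0.213 and 0.327 CPM with both drugs, the last from 4, 6 and 10 counts. The groups without palbociclib overlapped, the palbociclib libraries lay below them, and the combination libraries lay lowest. SLC4A4 fell 2.15-fold under palbociclib (log2 -1.10, SE 0.25, edgeR adjusted p = 0.0084), 6.96-fold with both drugs (log2 -2.80, SE 0.28, adjusted p = 2.19e-05) and 3.24-fold in the combination against palbociclib (log2 -1.69, SE 0.29, adjusted p = 0.00697). With limma on log2(TPM + 0.1), a scale that shrinks changes at such levels, these last 2 values were -2.20 (adjusted p = 0.000191) and -1.02 (0.0953), so the second was no longer called. The interaction was -1.60 (SE 0.38, edgeR adjusted p = 0.0649), and -1.67 without palbociclib 3 (0.0444).

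SLC4A11, known from the corneal endothelium as a proton and ammonia pathway, was at 2.49, 3.50 and 3.80 CPM in control libraries, 3.65, 5.13 and 3.48 CPM under BLU9931, 2.78, 2.75 and 1.05 CPM under palbociclib and 1.18, 1.81 and 1.67 CPM with both drugs. The combination libraries lay below all control and BLU9931 libraries. It fell 2.09-fold against control (log2 -1.06, SE 0.34, edgeR adjusted p = 0.034) and 2.61-fold against BLU9931 (log2 -1.39, SE 0.34, adjusted p = 0.011). Against control the call ended without control 2, control 3 or any 1 of the 3 combination libraries (log2 -1.19 to -0.92, adjusted p 0.0613 to 0.121), and also with library totals in place of TMM (0.0503) and with limma on log2(TPM + 0.1) (-0.79, 0.145). Against BLU9931 it ended without combination 1 (-1.25, 0.0505).

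Among the SLC4 genes that rose was SLC4A3 (AE3), a chloride bicarbonate exchanger of heart and brain that exports base. Its libraries were at 8.38, 15.5 and 18.0 CPM in control cells, 19.2, 19.8 and 16.2 CPM under BLU9931, 36.1, 36.5 and 15.3 CPM under palbociclib and 32.9, 38.4 and 42.1 CPM with both drugs. Control 1 and palbociclib 3 were again the lowest of their groups, and the combination libraries lay above all control and BLU9931 libraries. SLC4A3 rose 2.70-fold with both drugs (log2 1.43, SE 0.33, edgeR adjusted p = 0.0063). Under palbociclib the value was 2.10-fold (log2 1.07, SE 0.33, adjusted p = 0.0392), and it passed in single omissions only when control 3 or palbociclib 3 was the library left out (log2 0.81 to 1.14, adjusted p 0.0559 to 0.151, in the other 10). Against BLU9931 the combination gave 1.04 (adjusted p = 0.0348), which missed without control 2 or any 1 of the 6 libraries compared (0.92 to 1.11, 0.0566 to 0.126). Without control 1 and palbociclib 3 together these 2 values were 1.10 (0.000272) and 1.02 (5.26e-05).

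SLC4A5 (NBCe2), a sodium bicarbonate cotransporter of choroid plexus and kidney, was at 0.447, 0.623 and 1.05 CPM in control libraries, 1.70, 2.14 and 1.97 CPM under BLU9931, 2.11, 5.19 and 3.03 CPM under palbociclib and 3.31, 2.95 and 2.09 CPM with both drugs. All 9 treated libraries lay above all 3 controls. It rose 4.77-fold under palbociclib (log2 2.26, SE 0.38, edgeR adjusted p = 0.00165) and 3.86-fold with both drugs (log2 1.95, SE 0.38, adjusted p = 0.0023). On log2(TPM + 0.1) with limma the palbociclib value was 1.47 (adjusted p = 0.0198). The BLU9931 value of 1.43 (SE 0.38) had an edgeR adjusted p of 0.15 and a DESeq2 adjusted p of 0.0256. SLC4A5 lies within AC006030.1 on the same strand and overlaps MTHFD2 on the other, so its counts could hold reads of these genes. MTHFD2 fell in the same comparisons (log2 -0.65 and -0.67), and AC006030.1 differed by 0.19 under palbociclib (adjusted p = 0.804) and rose by 1.40 with both drugs (adjusted p = 0.0262).

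The remaining tested SLC4 genes passed in no comparison of the main edgeR fit. SLC4A8 ranged from 143.3 to 313.1 CPM over the 12 libraries and its log2 difference with both drugs was 0.27 (SE 0.25, edgeR adjusted p = 0.456); it overlaps the abundant GALNT6 on the other strand. SLC4A2 (AE2), the common chloride bicarbonate exchanger, ranged from 32.7 to 80.5 CPM, with control 1 at 35.3 and palbociclib 3 at 32.7 CPM as the lowest libraries, and a difference of 0.27 (SE 0.30, adjusted p = 0.521). SLC4A9 stayed at or below 1.19 CPM and came nearest to a call under palbociclib (log2 0.95, SE 0.31, adjusted p = 0.0514). After GC adjustment it passed (0.90, SE 0.31, edgeR adjusted p = 0.0423).

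In the SLC12 family SLC12A2 (NKCC1), which brings in chloride with sodium and potassium, fell with both drugs. It was at 81.0, 72.9 and 61.4 CPM in control libraries, 46.5, 51.3 and 53.2 CPM under BLU9931, 43.2, 48.3 and 72.0 CPM under palbociclib and 45.0, 46.6 and 40.8 CPM with both drugs. The BLU9931 and combination libraries lay below all controls, and palbociclib 3 alone of the treated libraries lay among them. The fall with both drugs was 1.63-fold (log2 -0.70, SE 0.18, edgeR adjusted p = 0.0114). Palbociclib alone gave -0.40 (SE 0.18, adjusted p = 0.145), and -0.65 without palbociclib 3 (adjusted p = 0.00432).

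SLC12A4, SLC12A5, SLC12A7, SLC12A8 and SLC12A9 passed in no comparison of the main edgeR fit. Each passed in some of the alternative settings described below. SLC12A7, the most abundant, ranged from 94.5 to 169.2 CPM in control libraries and from 181.6 to 211.7 CPM with both drugs, groups that did not overlap, with a log2 difference of 0.47 (SE 0.26, edgeR adjusted p = 0.205). SLC12A9 ranged from 18.1 to 35.7 CPM and from 47.8 to 51.3 CPM, also without overlap, with 0.74 (SE 0.30, adjusted p = 0.0851). Among the 17 tested transporters that passed in no comparison of the main fit, this was the highest log2 difference with both drugs. Without control 1 and palbociclib 3 together, SLC12A9 gave 0.46 with both drugs and passed (SE 0.07, edgeR adjusted p = 0.000519).

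**Figure D4:**
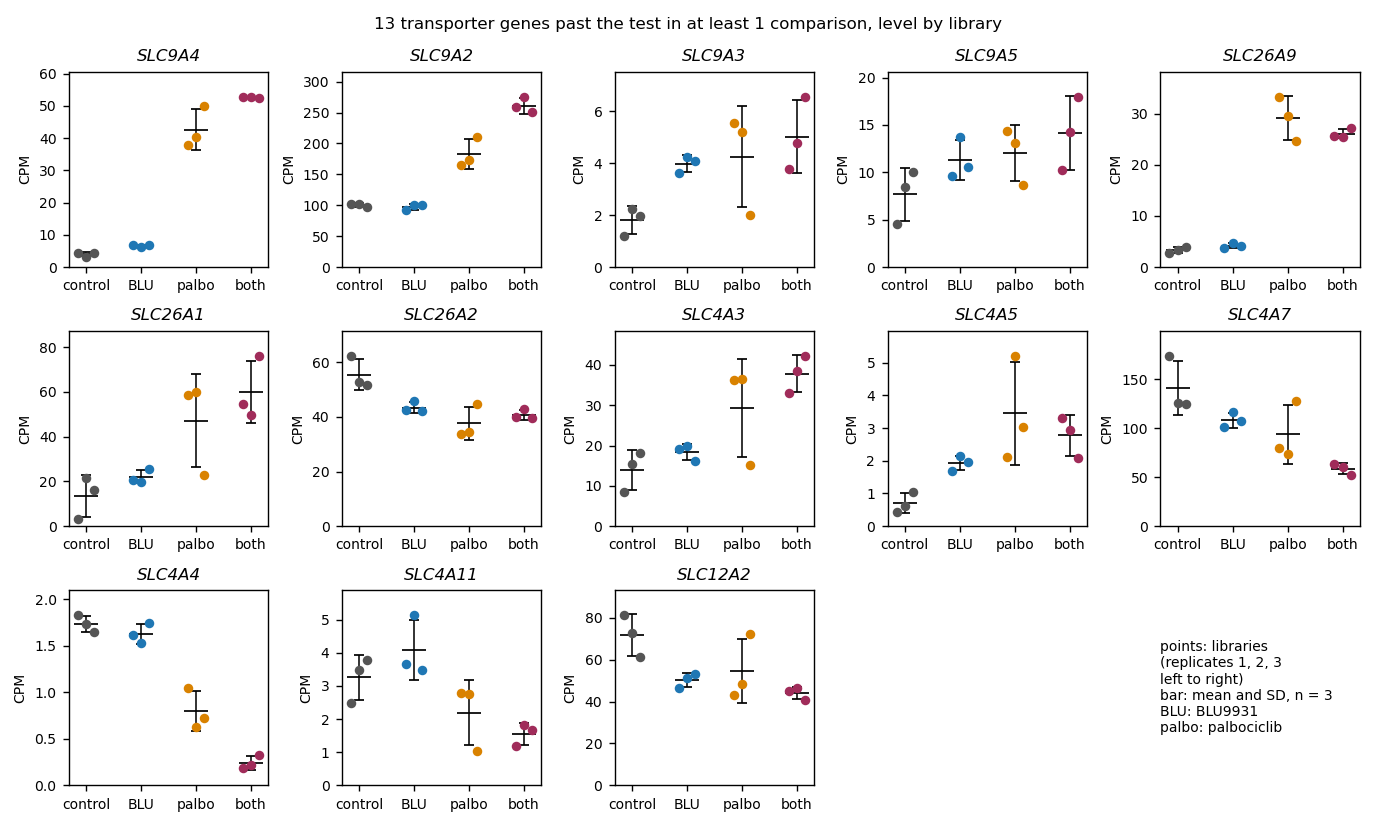
CPM in each library (points, replicates 1 to 3 from left to right) of 13 of the 14 transporter genes past edgeR's test in at least 1 comparison, in control, BLU9931 (BLU), palbociclib (palbo) and combination (both) cells, with mean and SD (n = 3) as bars and an axis from 0 in every panel. SLC9A4 and SLC26A9 show 2 levels, low without and high with palbociclib, and SLC4A4 is lower under palbociclib and lowest with both drugs.

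Genes that work with these transporters were read from 7 lists. Carbonic anhydrases, which make bicarbonate and protons from carbon dioxide and water, had 9 tested genes, of which 5 rose and 1 fell with both drugs (4 to 6 called when single libraries were left out). Of all genes tested, 15.4% were higher and 16.3% lower in this comparison, 31.7% in all, and the counts of the lists that follow stand beside the same shares. The one that fell was CA2, the abundant cytosolic enzyme, from 25.5 CPM in control cells to 8.63 under palbociclib and 7.50 with both drugs (log2 -1.77, SE 0.15, edgeR adjusted p = 7.55e-06). CA7, a cytosolic form of brain, rose from 0.583 to 2.56 and 6.55 CPM (log2 3.47, SE 0.33, adjusted p = 1.42e-05 with both drugs), and CA11, a related protein without enzyme activity, from 3.12 to 9.15 and 12.9 CPM (log2 2.04, SE 0.23, adjusted p = 4.92e-05). CA5B, a mitochondrial form, rose by 0.58 with both drugs (adjusted p = 0.0127), and by 0.51 when control 3 was left out, which missed the threshold (0.0512).

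The V-ATPase, the proton pump of lysosomes and other acidic compartments, had 22 tested genes, of which 7 rose and 2 fell with both drugs (6 to 13 called in single omissions), beside 31.7% of all genes, with a median log2 change of 0.50 against 0.03 for all genes. ATP6V0E1 rose from 103.1 to 160.7 CPM (log2 0.64, SE 0.08, edgeR adjusted p = 0.000146), ATP6V0D1 from 31.5 to 64.6 CPM (log2 1.03, adjusted p = 0.002) and ATP6V1A from 119.9 to 189.2 CPM (log2 0.66, adjusted p = 0.00882). ATP6V0A2 fell from 152.9 to 101.7 CPM (log2 -0.59, adjusted p = 0.00128).

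Chloride channels had 25 tested genes, 4 higher and 5 lower with both drugs (6 to 12 called in single omissions), a share near the 31.7% of all genes. ANO1, a calcium-activated chloride channel, fell from 29 CPM to 8.58 under palbociclib and 5.10 with both drugs (log2 -2.50, SE 0.17, edgeR adjusted p = 1.4e-06). LRRC8C, a subunit of the volume-regulated anion channel, fell from 30.1 to 12.7 and 7.06 CPM (log2 -2.09, SE 0.15, adjusted p = 2.14e-06). ANO6 fell from 145.0 to 71.9 CPM with both drugs (log2 -1.01), and the endosomal exchanger gene CLCN4 rose from 7.04 to 13.4 CPM (log2 0.93).

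Regulators of the exchangers and cotransporters moved in both directions. Of 16 tested regulators and scaffolds of the SLC9 and SLC4 proteins, 3 rose and 3 fell with both drugs (2 or 3 called in all when any control or BLU9931 library, palbociclib 1, combination 1 or combination 2 was left out), near the share of all genes (31.7%). CHP1, a cofactor that SLC9 exchangers need, rose from 79.1 to 129.3 CPM (log2 0.71, edgeR adjusted p = 0.0003). The membrane linker RDX fell from 74.9 to 39.2 CPM (log2 -0.93, adjusted p = 0.00339), and AHCYL2, a regulator of SLC4 cotransporters, rose from 19.1 to 36.9 CPM (log2 0.95, adjusted p = 0.0192), a call lost without control 1, control 2, combination 1 or combination 2 (0.0569 to 0.0649). The scaffold NHERF1 (SLC9A3R1) fell from 15.6 to 5.64 CPM under palbociclib (log2 -1.46, adjusted p = 0.00592). With both drugs it was at 8.38 CPM (log2 -0.89, adjusted p = 0.0403), a call lost in 8 single omissions (-0.91 to -0.66, 0.0519 to 0.142). In the WNK, SPAK and OSR1 kinase pathway, which sets the activity of SLC12 cotransporters, 3 of 16 rose and 3 fell with both drugs, again near that share, and 3 in all were called without control 1. CAB39L, an activator of SPAK and OSR1, rose from 7.54 to 14.3 CPM (log2 0.92, adjusted p = 0.000714), and the kinase gene SGK1 from 44.8 to 66.2 CPM (log2 0.56, adjusted p = 0.0137). The phosphatase gene PPP1CC fell from 420.0 to 232.9 CPM (log2 -0.85, adjusted p = 0.00759). SPAK itself (STK39) fell from 44.4 to 26.6 CPM (log2 -0.74, adjusted p = 0.0194), a call lost without control 1 (-0.58, 0.0628) or combination 1 (-0.71, 0.0573).

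The sodium pump and its relatives, whose gradient drives many of these carriers, had 8 tested genes, 2 higher and 3 lower with both drugs, beside 31.7% of all genes called. The beta subunit gene ATP1B1 rose from 158.9 to 273.7 CPM (log2 0.78, SE 0.13, edgeR adjusted p = 0.00101). The pump regulator FXYD6 fell from 12.9 to 3.44 CPM (log2 -1.90, SE 0.18, adjusted p = 1.62e-05), with 19.6 CPM under BLU9931 and 6.23 CPM under palbociclib. ATP1B3, another beta subunit gene, fell from 143.2 to 110.0 CPM (log2 -0.38, adjusted p = 0.0169), a call lost without combination 3 (-0.32, 0.0535). Of 6 proton-linked monocarboxylate transporter and chaperone genes, 1 rose with both drugs, the lactate carrier gene SLC16A8, from 3 to 10.5 CPM (log2 1.81, adjusted p = 0.00556). That count was 2 without control 2, palbociclib 2, palbociclib 3 or combination 1. SLC16A7, another carrier of this kind, fell from 11.9 to 2.23 CPM under palbociclib (log2 -2.42, SE 0.58, edgeR adjusted p = 0.0131). That call was lost without palbociclib 1 (-2.24, 0.0531). With both drugs SLC16A7 was at 4.81 CPM (log2 -1.31, adjusted p = 0.0936).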

How the data were processed

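Each gene has 3 deposited values per library: its count, its TPM and its FPKM, so called per the file headers. The counts are whole numbers with different totals per library, the TPM values sum to about the same total in each, and the deposited FPKM values were not used. Per the submitters' processing notes, Trimmomatic 0.36, HISAT2 2.0, bedtools 2.26.0 and StringTie 1.3.3b were used, with roles not given, and a mouse build is named. Gene IDs are human: GENCODE 29 holds 57836 of the 58174, and 56044 of them at identical positions, so coordinates are on GRCh38. The counting tool and its use of strand are not given in the sources used here. The table has 0 columns of other samples.

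Counts were tested in R 4.3.3 with edgeR 4.0.16: filterByExpr over the 4 groups (20612 genes kept, 14580 protein-coding), TMM, and a robust quasi-likelihood fit of the 12 libraries (8 residual degrees of freedom, common dispersion 0.0518). The 6 contrasts used two-sided F-tests with Benjamini-Hochberg adjustment over all genes and a threshold of 0.05. Levels are mean ± SD of 3 libraries. Alternatives were library totals, DESeq2 1.42.0, no filter, limma 3.58.1 on log2(TPM + 0.1), a replicate block, a GC adjustment (a smooth of each library's deviation from the 12-library mean on GC content, which also removes any group difference that follows GC), both together, and omissions of libraries. The test was checked on simulated data, where it missed part of the smaller changes, so a gene without a call may still differ. Members with a call and a group mean of at least 1 CPM are given library by library. Some genes that enter the counts are not reported here by name or drawn by name. Up to 4 genes per companion list with a call and at least 5 CPM in a compared group are named, by smallest adjusted p with both drugs. The members, lists and tests were chosen with earlier results of these data known. Replicates of a group differed by more than counting noise (chi-square per degree of freedom 16.6 to 81.7). Python 3.11.15 (matplotlib 3.10.9, numpy 2.4.6, pandas 2.3.3) drew the plots and joined the tables.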

Additional observations from a re-analysis of the deposited data

How the results depend on the processing

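Over 20 alternatives, 24 of the 34 calls of a transporter in a comparison passed every time, 10 missed the threshold in at least 1, and 0 changed direction. Called transporters numbered 10 for palbociclib, 0 for BLU9931 and 14 for the combination against control, 2 for the combination against palbociclib, 8 against BLU9931 and 0 for the interaction. With DESeq2 the BLU9931 count was 2 and the interaction count 3, beside 544 and 818 of all genes. With limma on TPM the combination against palbociclib gave 1, beside 620 of all genes. After GC adjustment the counts were 15 for palbociclib, 2 for BLU9931, 20 for the combination, 16 against BLU9931, 4 against palbociclib and 3 for the interaction, while 7075, 695, 8997, 8438, 2354 and 1740 of all 20612 genes were called in the same order, against 4236, 37, 6532, 5572, 788 and 328 without it. With the replicate block added to the GC adjustment, the counts were 15, 1, 19, 15, 4 and 2, beside 6616, 344, 8546, 7939, 1868 and 1301 of all genes. Without control 1 and palbociclib 3 together they were 15, 2, 17, 15, 4 and 3, beside 6027, 553, 8189, 8685, 2043 and 2117 of all genes. Leaving out 1 library at a time gave 7 to 14 for palbociclib, 0 to 1 for BLU9931, 11 to 18 for the combination, 1 to 2 against palbociclib, 6 to 10 against BLU9931 and 0 to 3 for the interaction. In each of these but the comparison with palbociclib, the highest value came without palbociclib 3. Of all genes, the same omissions called 2985 to 5689 for palbociclib, 1 to 396 for BLU9931 and 5105 to 7869 for the combination. They called 438 to 945 against palbociclib, 4120 to 6836 against BLU9931 and 148 to 986 for the interaction. These ranges too were highest without palbociclib 3, except against palbociclib. Against palbociclib, 1 transporter remained past the threshold without palbociclib 2 or combination 2. The causes of these moves were not tested.

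Libraries that share a replicate number share nothing else in the labels, and their deviations correlated between -0.364 and 0.168. With the replicate number as a block the counts were 7 for palbociclib, 0 for BLU9931, 13 for the combination, 2 against palbociclib, 7 against BLU9931 and 0 for the interaction. The same fit called 3231, 2, 5613, 483, 4688 and 142 of all 20612 genes in that order. Library totals in place of TMM moved the median of all genes to at most 0.11 on the log2 scale. With no filter on low counts, SLC9A9 was called with both drugs (edgeR adjusted p = 0.0239) on at most 8 counts in a library. Members with a GC content of at least 55% carry the deviations of control 1 and palbociclib 3 in their group means.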
